A study of Bubalus bubalis with 12 samples.

Results

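The genes described here encode proteins of the mitochondrial ribosome and of the respiratory chain. They were chosen by the name printed for each probe on the array, which had to begin with MRPL or MRPS and a digit, NDUF, SDHA to SDHD, UQCR, COX and a digit, or ATP5, and by having 2 or more probes. The rule matched 129 names, of which 31 had 1 probe and were left out, and it gave 98 genes out of the 6805 on the array with 2 or more probes. They comprise 22 genes named for the large and 16 named for the small subunit of the mitochondrial ribosome, 23 subunits and 1 assembly factor of complex I (NDUFAF2), 4 genes of complex II (SDHB, SDHC, SDHAF1 and SDHAF2), 5 of complex III, 8 subunits and 6 assembly factors of complex IV, and 13 of complex V. These roles were read from the gene names alone, and the place of each protein was not checked. The rule uses no measured value.

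Sperm from cryopreserved semen of water buffalo bulls (Bubalus bubalis) had been profiled by ChIP-on-chip, in which DNA recovered with an antibody is hybridised to an array against unselected DNA, the input. The high-fertile bulls were HF2, HF3 and HF5 and the subfertile bulls SF1, SF4 and SF5, 3 a group, and each gave 1 array for histone H3 dimethylated at lysine 4 (H3K4me2) and 1 for histone H3 trimethylated at lysine 27 (H3K27me3), 12 arrays in all. Every bull's chromatin was cross-linked and cut with micrococcal nuclease; breed and age are not given in the sources used here. The study asked where either mark differs between the fertility groups. Each array value is a log2 ratio of ChIP over the same bull's input, set to 0 at the array's median probe, and a gene's value is the mean of its probes, so a value places a gene among the other probes of that array and gives no absolute amount of a mark.

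The mitochondrial ribosome makes the few respiratory proteins that mitochondrial DNA still encodes, while all the genes described here lie in the nucleus. Complexes I to IV pass electrons to oxygen, and complexes I, III and IV pump protons across the inner mitochondrial membrane. Complex V, the ATP synthase, uses the proton gradient to make ATP. In mammalian sperm the mitochondria are wrapped around the midpiece of the flagellum, and most histones have been replaced by protamines, so that only part of the genome still carries histone marks. H3K4me2 is known from promoters of active or poised genes and H3K27me3 from genes silenced by Polycomb complexes.

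The array read these genes with 983 probes of 60 bases, 2 to 37 per gene with a median of 7, against a median of 8 for all 6805 genes. The array's own annotation calls 813 of them CpG island probes, 147 promoter probes and 23 coding probes. Their mean GC content was 50.3%, against 49.8% for the probes of all genes, with 2.92 against 2.67 CpG dinucleotides per probe. The probes were designed on cattle sequence, with positions on the build HGSC Btau_3.1 per the file headers, and how well each matches a given bull's DNA was not tested. Probes of a gene often overlap by most of their length and then read nearly the same DNA: across the 12 arrays, pairs of probes of 1 gene that start under 100 bases apart had a median correlation of 0.81 (4321 pairs), pairs 100 to under 500 bases apart 0.08 (1663 pairs) and pairs 500 bases or more apart -0.0047 (946 pairs), against -0.0014 for probes of different genes in the set. These are descriptions over arrays that share bulls. The number of probes is therefore not a number of independent readings.

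The probes below carry the values that the results turn on. In the first pair the capitals mark motifs of the known regulators of respiratory genes, the core of the NRF1 motif (GCATGCGC or its reverse complement GCGCATGC) and the ETS motif bound by GABP (CCGGAAG or CTTCCGG), and in the others they mark CpG dinucleotides. ATP5G2 stood at chr5:29318814-29318873, ATP5F1 at chr3:34439951-34440010, UQCR10 at chr17:72385671-72385730 for the probe of lower and chr17:72386006-72386065 for that of higher position, MRPS30 at chr20:31965374-31965433 and chr20:31965407-31965466, COX5A at chr21:33835882-33835941 and NDUFS4 at chr20:27232474-27232533. All are annotated as CpG island probes, the sequences are those printed in the deposited array files, and the strand is not given there.
ATP5G2: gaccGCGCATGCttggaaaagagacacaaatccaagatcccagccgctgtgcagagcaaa
ATP5F1: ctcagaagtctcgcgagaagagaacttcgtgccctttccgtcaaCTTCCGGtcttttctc
UQCR10, lower position: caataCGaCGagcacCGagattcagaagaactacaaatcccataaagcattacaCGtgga
UQCR10, higher position: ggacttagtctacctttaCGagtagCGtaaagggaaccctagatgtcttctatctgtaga
MRPS30, lower position: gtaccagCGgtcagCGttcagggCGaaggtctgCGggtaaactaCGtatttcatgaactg
MRPS30, higher position: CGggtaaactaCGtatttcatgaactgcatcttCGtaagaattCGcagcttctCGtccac
COX5A: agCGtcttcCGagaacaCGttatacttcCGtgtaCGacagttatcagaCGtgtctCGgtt
NDUFS4: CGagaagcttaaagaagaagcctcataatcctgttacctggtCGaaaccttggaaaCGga
The COX5A probe holds 7 CpG dinucleotides, a density that few probes reach: 3.87% of the probes of these genes and 3.45% of the probes of all genes hold 6 or more. The 2 MRPS30 probes start 33 bases apart and overlap, and they gave very different values, described further on.

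Both motifs were searched on both strands as exact matches; they share no letters that would let one count as the other. The ETS motif occurred in 26 of the 983 probes, 2.64% against 1.12% of the probes of all genes, and 18 of the 26 were overlapping probes of COX4I2. Counted by gene it was in 8 of 98 (ATP5D, ATP5F1, COX4I2, MRPL54, MRPS28, NDUFB6, NDUFB7 and UQCR11), or 8.16% against 5.69% of all genes. The NRF1 core was in 5 probes, 0.509% against 0.136%, of ATP5G2, MRPL32 and NDUFB6, and the full palindrome of the NRF1 motif was in 0 of them. The 8 genes with an ETS motif had a median high-fertile minus subfertile difference of 0.18 for H3K4me2, where the other 90 had 0.18, and of 0.21 for H3K27me3, where the other 90 had 0.16.

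The median raw ChIP signal of an array ranged from 356 to 1360, and the lowest for H3K4me2 were those of HF5 (589) and SF5 (356), the arrays on which GC-rich probes also read highest (0.90 and 1.02 log2 units above GC-poor probes, against -0.24 to 0.12 on the other 4 H3K4me2 arrays). Of the 983 probes, between 94.2% and 100% had ChIP signal that passed the scanner's background test on an array, and between 95.0% and 100% had input signal that did. The gene values spread most on those same arrays, with a standard deviation across the 98 genes of 1.16 in HF5 and 1.17 in SF5 for H3K4me2. It was 0.50 to 0.95 in the other 4 bulls. For H3K27me3, GC-rich probes read 0.65 log2 units above GC-poor probes in HF5 and 0.22 in SF5. The other 4 bulls had -0.21 to 0.10 for that mark. Of genes that mark sperm, 11 of 24 listed had 2 or more probes, and their median H3K4me2 value was -0.46 to 0.26 in high-fertile and 0.06 to 0.44 in subfertile bulls. The leukocyte (5 of 12 measured), epithelial (8 of 12) and somatic testis lists (5 of 12) had H3K4me2 medians between -0.32 and 0.28 in high-fertile bulls and between -0.21 and 1.24 in subfertile bulls, the highest being the somatic testis list in SF4. ChIP ratios of a marker gene do not measure how many cells of a type were present, and a part of other cells in any result was not tested.

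In high-fertile bulls, 61 of the 98 genes had a higher mean H3K4me2 value than in subfertile bulls and 37 a lower one, with a median difference of 0.18 log2 units, against -0.02 over all 6805 genes, of which 3282 were higher. That median was -0.03 with the ChIP signal alone, 0.10 with normexp background correction, 0.12 with medians over probes, and 0.05, 0.07 and 0.11 without HF5, HF3 or SF1. No gene of the set passed limma's moderated test at an adjusted p of 0.05, nor did any of the 6805 (0%), and at an unadjusted p under 0.05 the set had 0 genes, against 2.91% of all genes. Groups that did not overlap, with all 3 high-fertile bulls on one side of all 3 subfertile bulls, were found in 4 genes, or 4.08%, against 6.58% of all genes, 3 of them higher (3.48% of all genes) and 1 lower (3.1%). The 95% confidence interval of a difference reached 1.29 log2 units to each side in the median gene of the set.

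The median H3K4me2 value over the 98 genes was 0.06 in HF2, 0.26 in HF3 and -0.09 in HF5, against -0.06 in SF1, -0.04 in SF4 and -0.20 in SF5. HF5 fell inside the range of the subfertile bulls, so the groups overlapped. By role, small-subunit proteins of the mitochondrial ribosome had 12 of 16 genes higher (median difference 0.36), complex V had 10 of 13 (0.24), complex III 4 of 5 (0.20) and complex I 15 of 23 (0.10). Large-subunit proteins had 11 of 22 higher (0.02), complex II 2 of 4 (-0.15), the subunits of complex IV 3 of 8 (-0.08) and its assembly factors 4 of 6 (0.15). The proteins of the cytoplasmic ribosome, the set closest in kind, had 27 of 55 genes higher with a median difference of -0.01.

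**Figure D1:**
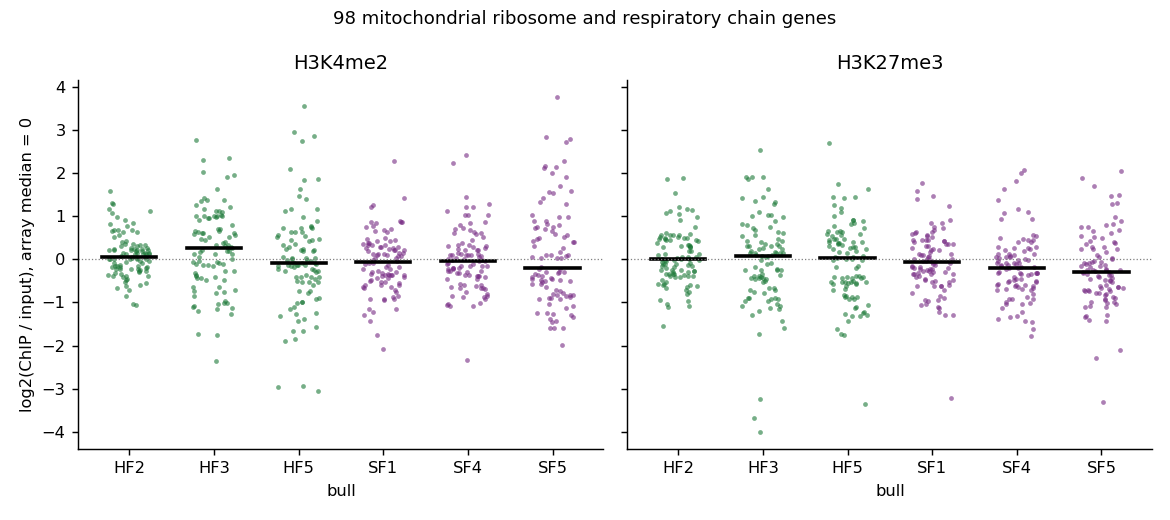
Log2 ratio of ChIP over input (array median = 0) for each of the 98 genes, 1 point a gene, in high-fertile (green) and subfertile bulls (purple), with H3K4me2 on the left, H3K27me3 on the right and a bar at the median. The H3K4me2 medians of the groups overlap because HF5 lies at -0.09, while the H3K27me3 medians run from -0.0007 to 0.07 in high-fertile and from -0.28 to -0.06 in subfertile bulls.

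Among the named genes, UQCRFS1 encodes the Rieske iron-sulfur protein of complex III. Its H3K4me2 value was 0.06, 0.80 and -0.14 in HF2, HF3 and HF5, against -1.15, -0.66 and -0.30 in SF1, SF4 and SF5. All high-fertile bulls lay above all subfertile bulls, though HF5 and SF5 differed by little, and the difference was 0.94 (limma, 95% confidence interval -0.11 to 2.00). ATP5L, subunit g of the ATP synthase, had 0.04, 0.56 and 0.22 in high-fertile bulls, against -0.39, -0.47 and -0.56 in subfertile bulls, a difference of 0.75 over 26 probes (95% confidence interval -0.17 to 1.66). COX4I2, a second form of subunit IV of cytochrome oxidase that is best known from lung, had 0.18, 0.38 and -0.23 in high-fertile bulls and -0.50, -0.66 and -0.71 in subfertile bulls, a difference of 0.74 (95% confidence interval -0.19 to 1.66). These 3 did not overlap between groups and were higher in high-fertile bulls. The 1 gene lower in this way was MRPL24, a large-subunit protein, with 0.00, 0.19 and -0.41 in high-fertile bulls, against 0.34, 0.73 and 0.73 in subfertile bulls, a difference of -0.67 (95% confidence interval -1.62 to 0.27).

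Some extreme H3K4me2 values came from 1 or 2 arrays, and the genes given here for it were chosen after their values were seen. COX11, which delivers copper to cytochrome oxidase, read 0.22, 0.00 and -0.08 in high-fertile bulls and 0.11, 0.04 and 3.78 in subfertile bulls over 23 probes, so SF5 alone stood apart and it held the highest value of any of the 98 genes on any array. NDUFB2, an accessory subunit of complex I, read -0.17, -2.36 and 3.56 in high-fertile and -0.44, 0.34 and -1.60 in subfertile bulls. ATP5H, subunit d of the ATP synthase, reached 2.95 in HF5 and 2.79 in SF5 and lay between -0.64 and -0.05 in the other 4 bulls, and UQCRC1, a core protein of complex III, reached 2.74 and 1.92 in the same 2 bulls and lay between -0.34 and 0.29 in the others. HF5 and SF5 are the arrays with the lowest H3K4me2 ChIP signal, and the part of that signal in these values was not tested. Without both arrays the median difference of the 98 genes was 0.20 and 6 genes had an unadjusted p under 0.05, 6.12% against 4.14% of all genes, with 2 bulls left in each group.

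For H3K27me3, 57 of the 98 genes were higher in high-fertile bulls and 41 lower, with a median difference of 0.16, against 0.01 over all genes, of which 3451 were higher. That median was 0.01 with the ChIP signal alone, -0.0014 within slide 4, 0.08 without HF5, 0.25 without SF1 and 0.11 without both HF5 and SF5. Again 0 genes of the set and 0 of 6805 (0%) passed an adjusted p of 0.05. At an unadjusted p under 0.05 the set had 5 genes, 5.1% against 4.07% of all genes, which is near the background. All 5 were higher in high-fertile bulls: ATP5G2, UQCR10, NDUFA8, MRPS30 and UQCRFS1, where 2.23% of all genes were higher in this way. Groups did not overlap in 8 genes, 8.16% against 8.57% of all genes, and all 8 were higher, against 4.56% of all genes for that direction, while 0 were lower, against 4.01%; the further 3 were MRPL30, ATP5I and NDUFA10. With each bull left out in turn, ATP5G2 kept an unadjusted p under 0.05 in limma. The p was above 0.05 for UQCR10 without HF2, HF3 or SF4, for NDUFA8 without HF3, HF5, SF1 or SF5, for MRPS30 without HF2, HF5, SF4 or SF5 and for UQCRFS1 without HF2, HF5, SF1 or SF5.

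The median H3K27me3 value over the 98 genes was -0.0007 in HF2, 0.07 in HF3 and 0.02 in HF5, against -0.06 in SF1, -0.20 in SF4 and -0.28 in SF5. These medians did not overlap between the groups, and the distance between the nearest 2 bulls was smaller than the range within the subfertile group. The medians of the 55 cytoplasmic ribosomal proteins did not overlap either, with 0.06, 0.05 and 0.15 in high-fertile and -0.07, 0.03 and -0.04 in subfertile bulls. By role, complex V had 10 of 13 genes higher (median difference 0.41), complex I 17 of 23 (0.28) and complex III 3 of 5 (0.50). Small-subunit proteins of the mitochondrial ribosome had 10 of 16 higher (0.09), large-subunit proteins 10 of 22 (-0.06), complex II 1 of 4 (-0.03), complex IV 4 of 8 (-0.01) and its assembly factors 2 of 6 (-0.29). The respiratory chain had 37 of 60 higher (0.26) and the mitochondrial ribosome 20 of 38 (0.02), while the cytoplasmic ribosomal proteins had 28 of 55 (0.0015). A difference between these sets was not tested.

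Complex V gave the widest gap between bulls. Its median H3K27me3 value over 13 genes was -0.13, 0.32 and 0.19 in HF2, HF3 and HF5, against -0.28, -0.50 and -0.34 in SF1, SF4 and SF5. Its median H3K4me2 value was 0.04, 0.17 and -0.01 in high-fertile bulls, against -0.27, -0.16 and -0.34 in subfertile bulls, so the groups overlapped in neither mark; these medians carry no test. The input, the denominator of both ratios, lay the other way: 11 of the 13 genes had a lower input signal in high-fertile bulls, with a median difference of -0.21. Its part in the ratios was not tested.

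**Figure D2:**
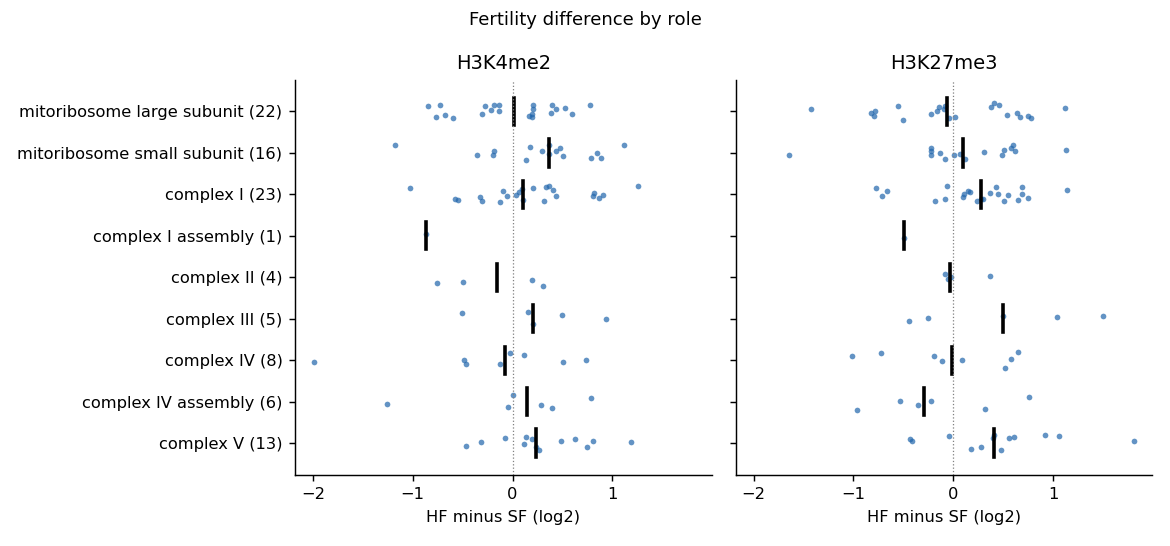
High-fertile minus subfertile difference in log2 units for each of the 98 genes, 1 point a gene, by role (number of genes in brackets), with a bar at the median, H3K4me2 on the left and H3K27me3 on the right. Complex V lies mostly to the right of 0 for both marks (10 of 13 genes each), and large-subunit proteins of the mitochondrial ribosome lie around 0.

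ATP5G2, one of the genes for subunit c, which forms the rotating ring of the ATP synthase, had the largest H3K27me3 difference of the set. It read 1.08, 1.91 and 0.33 in HF2, HF3 and HF5, against -1.03, 0.04 and -1.10 in SF1, SF4 and SF5. Every high-fertile bull lay above every subfertile bull, with means of 1.11 ± 0.79 and -0.70 ± 0.64 (SD, n = 3 each). The difference was 1.81 (95% confidence interval 0.59 to 3.03, adjusted p = 1 in limma). Its H3K4me2 value was 0.64, 1.13 and -0.13 in high-fertile and -0.55, 0.84 and 0.56 in subfertile bulls, so the groups overlapped and differed by 0.26.

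The 3 ATP5G2 probes overlap at chr5:29318814-29318880 and read alike, with H3K27me3 differences of 1.80, 1.82 and 1.80; the first is the one printed above with the NRF1 core. The ChIP signal taken without the input, on a log2 scale with the array median at 0, differed by 1.55, and the input on the same scale by -0.30, so most of the ratio's difference was in the ChIP channel. Within slide 4, which held HF5 and SF1, the difference was 1.36. The difference between marks (H3K4me2 minus H3K27me3 of the fertility difference) was -1.54 (95% confidence interval -3.22 to 0.14 in the fit without a replicate block). With the bull as replicate block its unadjusted p was under 0.05 and its adjusted p = 0.959 in limma. ATP5G1, a further gene for the same subunit c, had an H3K27me3 difference of -0.44 and overlapping groups.

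**Figure D3:**
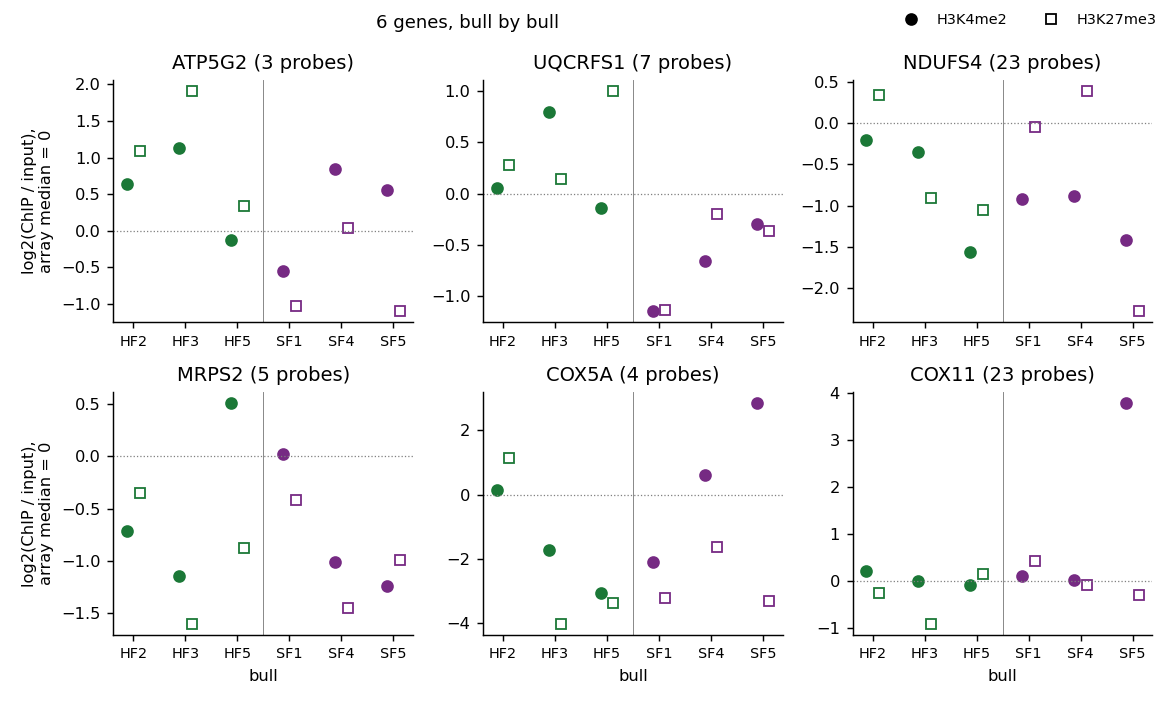
Log2 ratio of ChIP over input (array median = 0) in each bull for 6 genes, HF bulls left of SF bulls, with both marks shown. ATP5G2 and UQCRFS1 keep the groups apart for H3K27me3, NDUFS4 is below 0 for H3K4me2 in all 6 bulls, MRPS2 is below 0 for H3K27me3 in all 6, COX5A is low for H3K27me3 in all bulls but HF2, and COX11 is high for H3K4me2 in SF5.

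UQCRFS1 was the gene whose groups did not overlap for either mark. Its H3K27me3 value was 0.28, 0.15 and 1.00 in high-fertile bulls, against -1.13, -0.20 and -0.37 in subfertile bulls, a difference of 1.04 (95% confidence interval 0.05 to 2.04, adjusted p = 1 in limma). All 7 probes ran the same way for both marks, with differences of 0.74 to 1.75 for H3K4me2 and 0.81 to 1.69 for H3K27me3, over chr14:29807126-29807310. Both marks share the input of a bull, which at UQCRFS1 differed by -0.62, and the ChIP signal alone differed by 0.34 for H3K4me2 and 0.43 for H3K27me3.

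NDUFA8, an accessory subunit of complex I, had its H3K27me3 difference in the input channel. Its H3K27me3 value was 0.48, 1.03 and 1.63 in high-fertile and -0.31, 0.29 and -0.26 in subfertile bulls, a difference of 1.14 (95% confidence interval 0.15 to 2.12, adjusted p = 1 in limma), read by 2 promoter probes. The input at NDUFA8 was -1.79, -2.97 and -2.66 in high-fertile bulls, against -1.12, -1.35 and -1.74 in subfertile bulls, lower in all 3, and it differed by -1.07 (95% confidence interval -1.93 to -0.21). The H3K27me3 ChIP signal alone differed by -0.02. In HF3 the input was above background at 1 of the 2 probes. MRPL30, a large-subunit protein also read by 2 probes, had the same split between the channels: its H3K27me3 difference was 1.12 (95% confidence interval -0.05 to 2.29) and that of the ChIP signal alone -0.02, with the input at -4.01 in HF3 and between -1.81 and -0.61 in the other 5 bulls. The input of HF3 on the H3K27me3 array was above background at 0 of the 2 MRPL30 probes, so its ratio there is not well measured.

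ATP5I, subunit e of the ATP synthase, read 0.57, 0.19 and 0.19 for H3K27me3 in high-fertile and -0.27, -0.50 and -0.10 in subfertile bulls, a difference of 0.61 (95% confidence interval -0.22 to 1.43). NDUFA10, an accessory subunit of complex I, read 0.01, 0.32 and 0.16 in high-fertile and -0.18, -0.68 and -0.29 in subfertile bulls, a difference of 0.55 (95% confidence interval -0.28 to 1.37). Both kept the groups apart by small gaps. The ChIP signal alone differed by 0.35 at ATP5I, with an input difference of -0.25, and by 0.07 at NDUFA10, with an input difference of -0.52. The lowest H3K27me3 differences were those of the small-subunit protein MRPS27 (-1.65) and the large-subunit protein MRPL22 (-1.43), each read by 2 probes with overlapping groups; MRPL22 was named after its values were seen. MRPS27 read -0.20, 1.41 and -1.61 in high-fertile bulls, against 1.39, 1.11 and 2.05 in subfertile bulls (95% confidence interval -3.31 to 0.01), with HF3 inside the subfertile range.

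At UQCR10 and MRPS30 the H3K27me3 difference was uneven over the gene's probes. Whether the mark itself differs between stretches of these genes was not tested. UQCR10, a small subunit of complex III, read 1.21, 1.00 and 0.31 in high-fertile bulls, against -0.05, -1.79 and -0.16 in subfertile bulls, a difference of 1.51 (95% confidence interval 0.24 to 2.77, adjusted p = 1 in limma). Its H3K4me2 difference was 0.20, with 2.12 in SF5 as the highest bull. Of its 16 probes, 7 start within 28 bases of the first, at the lower position printed above, and the other 9 start 319 to 352 bases after it. Probes of the neighbouring gene ZMAT5 overlap or adjoin probes of UQCR10. In the first block the probes' H3K27me3 differences were 0.49 to 1.24, while the other 9 probes had 0.19 to 3.50, and 4 of these had an unadjusted p under 0.05 in limma's fit over all 175796 probes. The H3K4me2 differences of those 9 probes were all below 0, from -0.97 to -0.10, and those of the first 7 all above 0, from 0.76 to 1.27.

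At the UQCR10 probe of the higher position the H3K27me3 values were 0.75, 3.73 and 1.71 in high-fertile and -1.27, -3.74 and 0.68 in subfertile bulls, and the H3K4me2 values 0.26, 2.38 and -1.86 in high-fertile and -2.12, -2.03 and 5.63 in subfertile bulls. The input there was -2.42, -6.50 and -3.31 in high-fertile bulls, against -1.01, -1.93 and -3.31 in subfertile bulls. HF3 had by far the least input signal at this probe, not above background on either of its arrays, and the highest H3K27me3 ratio. The lowest H3K27me3 ratio, of SF4, had ChIP signal not above background, and so had the H3K4me2 ratio of HF5. Further UQCR10 probes had the same limits in HF3, SF4 and HF5. The H3K4me2 differences at these probes are thus limited as well. The H3K27me3 ChIP signal alone differed by 1.82 at the probe and by 0.84 over the gene, against 1.51 for the ratio. The difference over the gene was 0.94 without SF4 and 0.36 within slide 4.

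MRPS30 is named as a small-subunit protein, although structures of the mammalian mitochondrial ribosome place it in the large subunit; it is counted by its name among the 16, and it had the highest difference of these for both marks. Its H3K27me3 value was 1.06, 0.47 and 0.59 in high-fertile bulls, against 0.30, -0.58 and -1.001 in subfertile bulls, a difference of 1.13 (95% confidence interval 0.10 to 2.17, adjusted p = 1 in limma). The difference was not spread over its probes. The 7 probes that start within 21 bases of the first had H3K27me3 differences of 0.06 to 0.20, and the 9 that start 25 to 49 bases after it had 1.15 to 2.92, of which 7 had an unadjusted p under 0.05. The same step stood in H3K4me2, with -0.18 to 0.17 in the first block and 0.83 to 3.08 in the second, and in the input, with -0.39 to -0.16 and -1.74 to -0.27. These splits were chosen after the values were seen.

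At the MRPS30 probe of the higher position the H3K27me3 values were 1.69, 2.82 and 0.60 in high-fertile bulls, against -0.10, -1.22 and -2.31 in subfertile bulls, a difference of 2.92 (adjusted p = 1 in limma over probes), with the smallest p of any probe in the set. The input there was -1.61, -5.32 and -0.39 in high-fertile and -1.28, -0.63 and -0.19 in subfertile bulls. The lower position, 33 bases away, gave 0.54, -0.19 and 0.63 in high-fertile and 0.78, 0.04 and -0.10 in subfertile bulls for H3K27me3. At the higher position the input of HF3 was the lowest of the 6 bulls, and on its H3K27me3 array it was not above background. Further MRPS30 probes had the same limit on that array. For H3K4me2, the ChIP signal of SF5 was not above background at some MRPS30 probes, which limits their H3K4me2 differences. At the higher position the ChIP signal alone differed by 1.66 for H3K4me2 and 0.88 for H3K27me3, and over the gene by 0.41 for H3K27me3. Within slide 4 the gene differed by 0.29.

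ATP5F1, subunit b of the ATP synthase, had a similar step and was named after its values were seen. Its 5 probes that start within 175 bases of the first had H3K27me3 differences of 0.09 to 0.59, and the last 3, at 179 to 192 bases, had 1.40 to 2.71, of which 2 had an unadjusted p under 0.05; these 2 hold the ETS motif printed above. The H3K27me3 values at the printed probe were 2.17, 2.63 and -0.47 in high-fertile and -0.92, -0.84 and -2.03 in subfertile bulls, and its input was -0.68, -3.26 and 0.13 in high-fertile and 0.48, -1.29 and -0.20 in subfertile bulls. The ChIP signal alone differed by 1.87 at this probe, more than the input, which differed by -0.93.

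**Figure D4:**
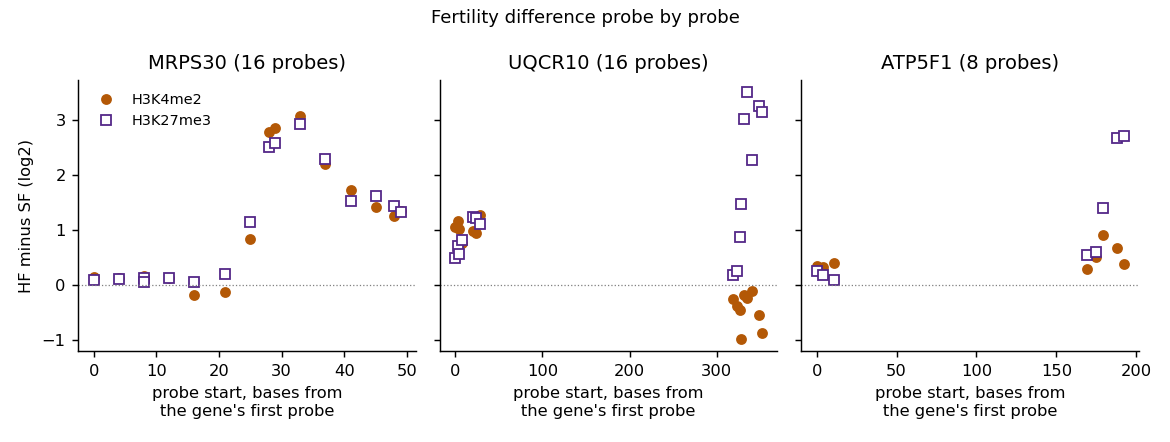
High-fertile minus subfertile difference in log2 units of single probes of MRPS30, UQCR10 and ATP5F1 against the distance of the probe's start from the gene's first probe, in bases, for both marks. The H3K27me3 difference of MRPS30 lies between 0.06 and 0.20 up to 21 bases and between 1.15 and 2.92 from 25 bases on.

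Over single probes, 977 probes of the set had values on all 12 arrays, and 0 passed an adjusted p of 0.05 for either mark. For H3K4me2, 14 probes had an unadjusted p under 0.05, 1.43% against 3.01% of all probes. For H3K27me3 there were 41, 4.2% against 4.31%, in 16 genes. Both shares were under the background. Against 0, 38 probes had an unadjusted p under 0.05 for H3K4me2, 3.89% against 4.21% of all probes, and 39 for H3K27me3, 3.99% against 5.25%. MRPS30 held 7 of the 41 and UQCR10 held 4, which are overlapping probes of 1 stretch each.

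Because input is the denominator of both ratios, it was compared by itself, with the arrays of a bull averaged. The input was lower in high-fertile bulls at 60 of the 98 genes and higher at 38, with a median difference of -0.12, against -0.05 over all genes. At an unadjusted p under 0.05 there was 1 gene, NDUFA8, 1.02% against 3.54% of all genes, and groups did not overlap in 4 genes, 4.08% against 7.77%. Of the genes with higher input, MRPS2 (0.69), NDUFAF2 (0.69) and the complex I subunit NDUFA6 (0.57) had the smallest p, and of those with lower input, next to NDUFA8, UQCR10 (-0.82) and the complex I subunit NDUFB5 (-0.90). NDUFAF2, an assembly factor of complex I, had an input of 1.57, 2.41 and 1.52 in high-fertile bulls and 1.09, 1.40 and 0.93 in subfertile bulls, with no overlap, and H3K4me2 and H3K27me3 differences of -0.87 and -0.50.

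HF3 had the lowest input of the 6 bulls at 45 of the 98 genes (45.9%, against 37.2% of all genes) and the highest at 27 (27.6%, against 22.3%). Without HF3 the median input difference of the set was -0.03.

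Between the marks, H3K4me2 exceeded H3K27me3 at 71 of the 98 genes when the fertility groups were averaged, with a median difference of 0.17, against 4067 of 6805 and 0.06 over all genes. No gene of the set or of the array passed an adjusted p of 0.05 (0%), and 0 genes of the set had an unadjusted p under 0.05, against 0.602% of all genes. The difference kept one sign in all 6 bulls at 5 genes, 5.1% against 3.54% of all genes: MRPL12, MRPL53, MRPS28 and NDUFS8 with H3K4me2 higher (4 genes, against 2.44% of all genes), and MRPS27 with H3K27me3 higher (1 gene, against 1.1%). At MRPS27 the H3K4me2 ChIP signal of HF5 was above background at 0 of 2 probes. MRPL53, a large-subunit protein, had H3K4me2 minus H3K27me3 values of 0.35, 0.02 and 1.22 in high-fertile and 0.38, 0.62 and 0.41 in subfertile bulls. Its mean was 0.50, with a 95% confidence interval of -0.24 to 1.24 in the fit without a replicate block. That fit takes the 2 arrays of a bull as separate.

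The 2 arrays of a bull share its input, and with the bull as replicate block 6 genes had an unadjusted p under 0.05 for this contrast, where the unblocked fit had 0: COX14 (0.71), COX5A, MRPL12, MRPL53, MRPS27 and UQCRC1, or 6.12% against 3.82% of all genes in that fit, with a lowest adjusted p of 0.934. COX14, an assembly factor of complex IV, had H3K4me2 minus H3K27me3 values of 1.17, 1.49 and 0.71 in high-fertile bulls and -0.04, 0.55 and 0.40 in subfertile bulls. For the difference of the fertility effect between marks the block gave 4 genes with an unadjusted p under 0.05 (ATP5G2, COX10, MRPL34 and NDUFV2), or 4.08% against 3.61% of all genes in that fit, where the unblocked fit had 0 and 0.661% of all genes, and again 0 genes passed an adjusted p of 0.05. The groups did not overlap in this difference at 9 genes, 9.18% against 9.32% of all genes.

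**Figure D5:**
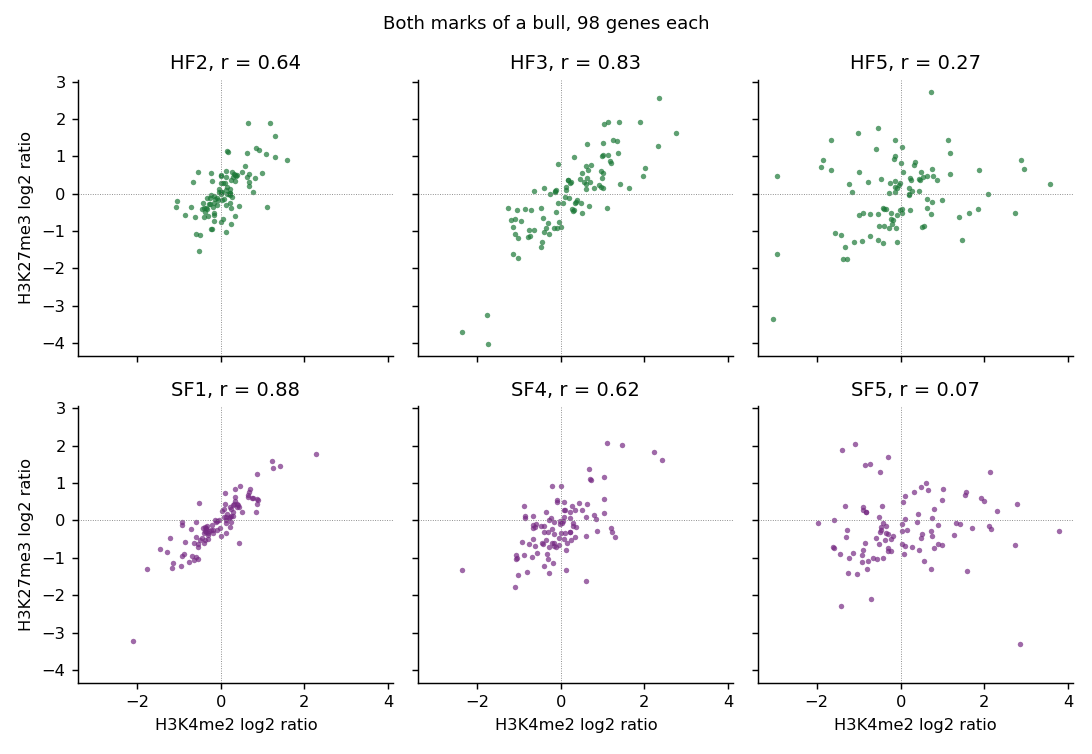
H3K27me3 log2 ratio against H3K4me2 log2 ratio of the 98 genes in each bull, 1 point a gene, with Pearson's r across genes in each title. The marks run together in SF1 (0.88), HF3 (0.83), HF2 (0.64) and SF4 (0.62) and hardly in HF5 (0.27) and SF5 (0.07).

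Across the 98 genes the marks of a bull correlated at 0.64 in HF2, 0.83 in HF3 and 0.27 in HF5, and at 0.88 in SF1, 0.62 in SF4 and 0.07 in SF5. The same mark in different bulls had a median correlation of -0.01 over 30 pairs of arrays, between -0.21 and 0.29. Over all genes that median was 0.0051. Genes are not independent replicates, and the arrays of a bull share input, so these are descriptions. Between bulls, then, the order of the 98 genes was hardly shared, and neither was that of all genes.

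Few genes of the set held one side of the array's median in all 6 bulls, 4 for H3K4me2 (4.08%, against 3.59% of all genes) and 2 for H3K27me3 (2.04%, against 3.51%). The median of the 98 genes was 0.09 for H3K4me2, against 0.06 over all genes, and -0.11 for H3K27me3, against 0.0019, with 61 and 36 genes above 0. The small-subunit proteins of the mitochondrial ribosome were lowest in H3K27me3, with 3 of 16 above 0 and a median of -0.22. No gene passed an adjusted p of 0.05 against 0 for either mark (0% of all genes as well), and at an unadjusted p under 0.05 there were 3 genes for H3K4me2, 3.06% against 4.44%, and 4 for H3K27me3, 4.08% against 5.29%.

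NDUFS4, an accessory subunit of complex I whose loss causes Leigh syndrome in humans, had the lowest H3K4me2 mean of the set. It read -0.21, -0.35 and -1.56 in high-fertile and -0.92, -0.88 and -1.42 in subfertile bulls, below 0 in all 6, with a mean of -0.89 (95% confidence interval -1.46 to -0.32, adjusted p = 0.933 in limma). It has 23 probes over chr20:27232433-27232696, and the 22 with values on all arrays were all below 0 on average. At the printed NDUFS4 probe, among the lowest of them, the H3K4me2 values were -0.46, -0.85 and -3.29 in high-fertile and -1.47, -1.79 and -3.14 in subfertile bulls, deepest in HF5 and SF5. MRPL52, a large-subunit protein, and ATP5B, the catalytic subunit of the ATP synthase, were also below 0 for H3K4me2 in all 6 bulls (means -0.44 and -0.41), and MRPL48 was above 0 in all 6 (0.72, with 2.29 in SF5 and 0.01 in SF4).

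For H3K27me3, MRPS2, a small-subunit protein, read -0.35, -1.60 and -0.88 in high-fertile and -0.42, -1.45 and -0.99 in subfertile bulls, below 0 in all 6 and nearly equal between groups, with a mean of -0.95 (95% confidence interval -1.49 to -0.41, adjusted p = 0.92 in limma). COX7A2, a subunit of complex IV, was above 0 in all 6 (mean 0.29). COX5A, another subunit of complex IV, was chosen after its values were seen: its H3K27me3 mean was -2.40, with ChIP signal above background at all probes in 3 of the 6 bulls (95% confidence interval -3.82 to -0.97, adjusted p = 0.92 in limma). Without HF2 it was -3.20 (limma, adjusted p = 0.119).

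COX5A read -4.01 and -3.35 for H3K27me3 in HF3 and HF5 and 1.15 in HF2, against -3.22, -1.63 and -3.31 in SF1, SF4 and SF5. Its H3K4me2 values were 0.16, -1.72 and -3.05 in high-fertile and -2.09, 0.60 and 2.84 in subfertile bulls. The marks thus differed by 6.16 in SF5 and by -0.99 in HF2. The mean difference between marks was 1.85 (95% confidence interval -0.32 to 4.02 in the fit without a replicate block). With the bull as replicate block the adjusted p was 0.934 in limma. The 4 probes overlap at chr21:33835882-33835953 and hold 6 or 7 CpG dinucleotides each. Their ChIP signal was well above background at 0 of 4 probes in HF5 for both marks and in SF5 for H3K27me3, at 1 of 4 in SF4 for H3K27me3, and at all 4 on the other arrays, while the input was well above background at all 4 on every array. For H3K27me3 the values of HF5 and SF5, and in part that of SF4, are thus limited by the background of the ChIP channel. For H3K4me2 only that of HF5 is, and the values of HF3 and SF1 are limited for neither mark.

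SDHC, an anchor subunit of complex II named after its values were seen, differed more within a fertility group than between the groups. Its H3K4me2 value was 0.77, 1.42 and -0.53 in high-fertile and 2.28, 2.42 and -0.78 in subfertile bulls, and its H3K27me3 value 0.05, 0.25 and 1.76 in high-fertile and 1.76, 1.63 and -1.08 in subfertile bulls. It was high in SF1 and SF4 for both marks and low in SF5 for both, within 1 fertility group. SDHAF1, an assembly factor of complex II with 17 probes, and NDUFA9, a complex I subunit with 34, had differences of 0.19 and 0.04 for H3K4me2 and 0.37 and 0.45 for H3K27me3, with overlapping groups. MRPL21, with 37 probes the most densely read gene of the set, had 0.17 and -0.14, MRPS34 (28 probes) 0.79 and 0.51, ATP5D (30 probes) 0.24 and 0.48, and COX20 (24 probes) 0.40 and -0.23.

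Of 98 genes, 15 had a probe of another gene within 1000 bases of their own, counted over probes with positions of their own. MRPL47 and NDUFB5, both in the set, lay 133 bases apart, and had H3K4me2 differences of -0.60 and 0.87 and H3K27me3 differences of -0.55 and 0.75. ATP5J, the coupling factor subunit of the ATP synthase, lay 451 bases from GABPA, which encodes a subunit of the ETS factor GABP; their H3K4me2 differences were 0.62 and -0.77 and their H3K27me3 differences 0.92 and -0.07. Both pairs were chosen after their values were seen.

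A further 4 lists gave the other nuclear genes of the same pathways, chosen with earlier results of these data known. Of 33 listed genes of mitochondrial translation, 21 had 2 or more probes: H3K4me2 was higher in high-fertile bulls at 7 of them and lower at 14 (median difference -0.28) and H3K27me3 higher at 6 and lower at 15 (-0.28). Of 38 assembly factors and cytochromes, 18 were measured, with 8 higher for each mark (-0.02 and -0.03). Of 26 genes of mitochondrial transcription and its nuclear regulators, 16 were measured, with 8 higher for H3K4me2 (0.01) and 9 for H3K27me3 (0.12). Of 18 genes of the tricarboxylic acid cycle, 6 were measured, with 4 higher for H3K4me2 (0.32) and 3 for H3K27me3 (-0.06). None passed an adjusted p of 0.05 in limma.

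Among them, those of smallest p lay lower in high-fertile bulls, apart from CYC1. CYC1, the cytochrome c1 subunit of complex III that the name rule does not reach, had H3K4me2 values of 0.38, 0.79 and 0.63 in high-fertile bulls, against 0.02, -1.19 and -0.37 in subfertile bulls, a difference of 1.11 (95% confidence interval 0.06 to 2.17), with no overlap. AARS2, the mitochondrial alanyl-tRNA synthetase, had 0.75, -1.87 and -1.07 in high-fertile and 1.72, 0.36 and 5.12 in subfertile bulls for H3K4me2, a difference of -3.13 (95% confidence interval -5.78 to -0.48), with SF5 far above the rest. PTCD3, which binds the RNA of the small mitochondrial ribosomal subunit, differed by -2.02 for H3K4me2 and -2.31 for H3K27me3 and read -3.47 for H3K27me3 in HF3. ACAD9, which helps to assemble complex I, differed by -1.10 for H3K27me3 without overlap (95% confidence interval -1.95 to -0.25), and SUCLG1, of the tricarboxylic acid cycle, by -1.76. The inputs of AARS2, PTCD3, ACAD9 and SUCLG1 were higher in high-fertile bulls, by 0.98, 1.12, 0.64 and 1.59. TMEM177 (H3K4me2 difference -2.75) and OXA1L (H3K27me3 difference -3.37) had the smallest p of these lists for their marks, with inputs that differed by 0.96 and 1.40.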

How the data were processed

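DNA recovered with antibodies against H3K4me2 or H3K27me3 (Cy5) and input DNA (Cy3) of 6 bulls were hybridised on 12 Agilent arrays with no dye swap, after linker-mediated PCR. Per the file headers, the authors' scanner output was made with Feature Extraction 10.7.3.1 (10.7 per the submitters' processing notes), and its processed intensity values were background-subtracted, spatially detrended and dye-normalised within each array. The deposited log10 ratio of each spot is that of the processed red over green intensity. The deposited quality flags, with no unit, mark outlier and saturated spots and spots well above background. The authors' deposited table of log2 ratios for 177439 probes was used as an alternative; it followed the scanner ratios with a correlation of 0.741 to 0.995, ran as ChIP over input with column medians of -0.13 to 0.10, and how it was adjusted is not stated.

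Of 177440 probes that are not controls, 177372 passed a filter that asked for input above background, by the scanner's flag, on 6 or more of the 12 arrays. Outlier spots were set missing, log2 of processed red over green was centred on each array's median, and probes were averaged per gene name where 2 or more were present. Neither loess nor quantile normalisation was applied. Linear models of gene means (6805) and of probes (175796) used limma 3.58.1 under R 4.3.3, with lmFit and eBayes, two-sided tests and Benjamini-Hochberg adjustment at 0.05, and the scripts were tested on simulated data. Array names of genes were kept, and 65 of the 98 occur in the RefSeq gene table used here. The number of arrays limits precision. In simulated data with the measured spread, 200 genes were given a known difference. At 2 log2 units, 0 of them passed an adjusted p of 0.05 in limma with the right sign for H3K4me2, and 49 for H3K27me3. At 4 log2 units, 170 and 183 did. Within a mark and for input, p-values measure the spread between bulls, which also holds that of ChIP, arrays and slides. HF2, HF3, SF4 and SF5 each had a slide of their own, and HF5 and SF1 shared slide 4. Outside slide 4, fertility group and slide cannot be told apart. The contrasts of marks without a replicate block take the 2 arrays of a bull as separate, although these share its input.

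The genes and lists were chosen with earlier results of these data known. Genes were named where groups did not overlap or a mark kept one sign in all bulls, where input differed most by p, where a role's gene had the most probes, and where listed pathway genes had the smallest p; others are said to be chosen later. The arrays of a bull share its input by their labels. To check this, each gene's mean input over the 12 arrays was subtracted. What remained correlated at 0.937 to 0.985 between the 2 arrays of a bull. Between a bull's H3K4me2 array and the H3K27me3 arrays of other bulls it correlated at 0.189 at most. The input as measured, with the gene means left in, was not correlated between bulls here. Motifs were searched in the probes, since promoter sequences were not used here. Alternatives were no probe filter, loess (span 0.3), normexp (offset 50), the deposited table, medians over probes, a GC correction, ChIP signal alone, each bull left out, HF5 and SF5 left out together, the bull as replicate block and the slide.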

Additional observations from a re-analysis of the deposited data

How the results depend on the processing

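No gene passed an adjusted p of 0.05 in limma under any alternative run, in any comparison. Named genes gave 403 values under the alternatives, over 31 pairs of a gene and a comparison. Of these values, 401 kept their direction and, where a test was run, their side of the threshold. The other 2 reversed with the ChIP signal alone, the H3K27me3 differences of NDUFA8 (-0.0218) and MRPL30 (-0.024). With the ChIP signal alone the 98 genes' median difference was -0.0322 for H3K4me2 and 0.0124 for H3K27me3. Within slide 4 (HF5 minus SF1) their H3K27me3 median was -0.0014. With each bull left out, the H3K27me3 median ran between 0.0761 (without HF5) and 0.2524 (without SF1), the H3K4me2 median between 0.0478 and 0.204, and the input median between -0.167 (without HF5) and -0.0323 (without HF3). The cause of these shifts was not tested. Genes with an unadjusted p under 0.05 numbered 0 to 6 for H3K4me2, 3 to 6 for H3K27me3, 2 to 9 for H3K4me2 and 4 to 8 for H3K27me3 against 0, and 0 to 4 for input. With the bull as replicate block, which the labels give for the contrasts of marks, they numbered 6 for H3K4me2 minus H3K27me3 and 4 for the difference between marks of the fertility effect, against 0 without it, and the medians stayed at 0.1673 and -0.032. No paired analysis was possible because, between fertility groups, the shared number 5 names different bulls. Slide as a random block could not be fitted, since 5 slides and 2 groups leave no spread among 6 arrays. With 3 bulls a group, the median gene's 95% interval reached 1.29 to each side for H3K4me2 and 1.20 for H3K27me3. ChIP signal not above background limits some values of COX5A, UQCR10 and MRPS30. Input not above background in HF3 limits those of MRPL30 and of some probes of UQCR10 and MRPS30.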
